A study of Drosophila melanogaster with 16 samples.

Results

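The Imp genes of the fruit fly Drosophila melanogaster were first isolated as transcripts that the steroid hormone ecdysone induces in imaginal discs, with E marking early and L marking late induction. The 6 genes ImpE1, ImpE2, ImpE3, ImpL1, ImpL2 and ImpL3 were taken by symbol from a table of 15682 genes, and all 6 were present, on 1 row each. They were selected on the RPKM values of R7 against R8 in these same libraries, where ImpL1 and ImpE2 had been seen to be higher in R8. Values of the 6 genes in R7 beside R8 are therefore a description and carry no test, whereas comparisons of photoreceptors as a class with lamina neurons, and among lamina neurons, were tested.

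In insects, pulses of ecdysone drive metamorphosis. The active hormone binds a receptor made of EcR and Usp, which induces regulatory genes such as br, Eip74EF and Eip75B, and these in turn control effector genes. ImpE2 encodes a secreted protein found at the apical surface of evaginating discs, ImpL2 a secreted immunoglobulin-domain protein that binds insulin-like peptides, and ImpL3 the enzyme lactate dehydrogenase (now named Ldh).

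The libraries hold RNA from 7 neuron types of the pupal visual system, all labelled wild type and optic lobe tissue, and sorted by flow cytometry after dissociation of pupal brains. R7 and R8 are the inner photoreceptors of the eye, and L1 to L5 are the interneurons of the lamina, the first optic neuropil. There were 4 libraries of L3 and 2 of each other type, 16 in all. Values are RPKM, that is, reads per kilobase of gene and per M reads of the library. Ages in the labels disagree. One field sets a separate age in hours after puparium formation per type, 24 (L1), 35 (L2), 40 (L3), 45 (L4), 53 (L5), 65 (R7) and 96 (R8), but the protocol has tissue taken at 40 h throughout. Headings of the lamina columns also hold the number 40, while those of R7 and R8 hold no such number. Should the separate ages be right, every comparison here would mix age with type, and these cannot be told apart. How each type was marked for sorting is not given in the sources used here, nor whether the libraries of a type came from separate flies, so p-values measure the spread between libraries.

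Library depth, worked out from the spacing of low RPKM values, was 47.0 to 153 M reads, and 3 reads on a gene of 2 kb corresponded to 0.00978 to 0.0319 RPKM. Marker genes followed the labelled types. The 6 photoreceptor markers summed to 1127 to 1658 RPKM in R7 and R8 and to 5.21 to 73.7 in lamina libraries, with L3 highest at 31.1 to 73.7. The 7 lamina markers summed to 174 to 792 RPKM in lamina libraries and to 5.15 to 8.97 in R7 and R8. Neuron markers summed to 253 to 499 RPKM throughout. The mitochondrial share of reads was 14.6% in L3 replicate 3 and 9.60% in replicate 4, against 4.17 and 3.96% in replicates 1 and 2. Libraries of the other types had 4.98 to 9.86%.

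ImpL1 and ImpE2 were the Imp genes with high levels, and both were lowest in R7 and highest in R8. ImpL1 (FBgn0001256, chromosome arm 3L), a late gene, stood at 1389.5 and 1595 RPKM in the R8 libraries, which ranked it 71st and 68th among all genes of the table. In R7 it stood at 2.04 and 9.71 RPKM. L1 lay next above R7, at 18.4 and 19.9 RPKM. These 3 groups did not overlap, and R7 was the type whose libraries differed most from each other in proportion.

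The remaining lamina types were intermediate in ImpL1. L2 had 121 and 284 RPKM and L4 had 129 and 167. L3 had 148, 440, 196 and 207 RPKM. L5 had 353 and 371 RPKM. By mean the order was R8, L5, L3, L2, L4, L1 and R7, with no overlap between R8 and L5, between L4 and L1, or between L1 and R7, and with overlap between L5 and L3, L3 and L2, and L2 and L4.

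ImpE2 (FBgn0001254, arm 3L) followed the same outline at a lower level. R8 had 86.9 and 91.7 RPKM. R7 had 0.153 and 0.412 RPKM, which correspond to about 20 and 53 reads. L1 had 4.34 and 3.46 RPKM. Here too R8 lay above every other library, R7 below every other library, and L1 between R7 and the other lamina types.

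In the other lamina types ImpE2 was at 21.6 and 77.4 RPKM in L2, the widest pair. L3 had 31.0, 51.9, 33.3 and 30.5 RPKM. L4 had 42.3 and 28.1 RPKM and L5 had 30.4 and 41.3. The order by mean was R8, L2, L3, L5, L4, L1 and R7, and the neighbours L2, L3, L5 and L4 overlapped. The mean R8 level of ImpE2 was 2.77 times the mean over the 5 lamina types, and that of ImpL1 was 7.61 times.

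**Figure D1:**
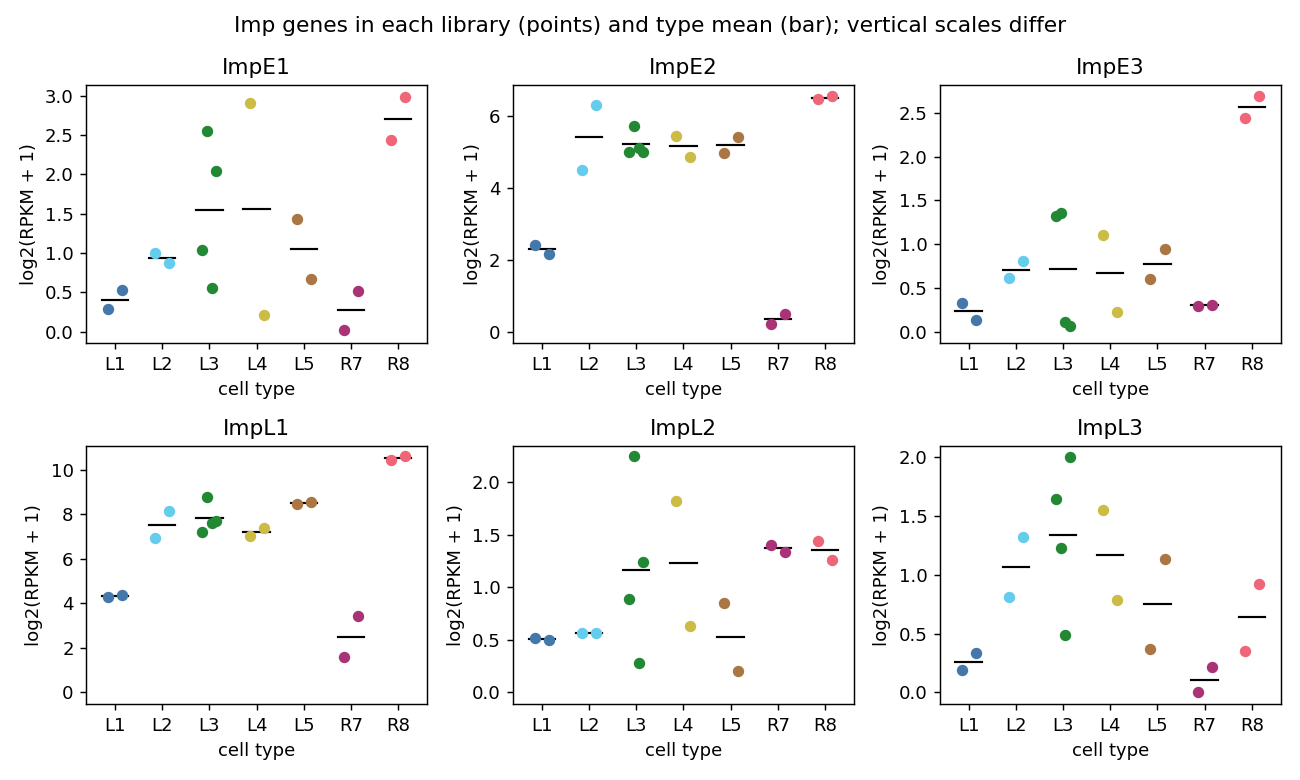
The 6 Imp genes on the log2(RPKM + 1) scale (vertical axis, a separate scale for each gene) by cell type (horizontal axis), with 1 point for each of the 16 libraries and a bar at the type mean of these log2 values. ImpE2 and ImpL1 are lowest in R7 and highest in R8 with L1 second lowest, whereas ImpL2 in R7 and R8 lies within the range of L3.

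ImpE3 and ImpE1 were low throughout and also stood higher in R8 than in R7. ImpE3 (FBgn0001255, arm 3R) had 4.42 and 5.45 RPKM in R8, above every other library. In R7 it had 0.228 and 0.237 RPKM, and in L1 0.257 and 0.102. L3 had 1.49, 1.56, 0.0787 and 0.0467 RPKM, and the 2 low values were from the replicates with the higher mitochondrial share. The part of that share in these values was not tested. In L1, L2 and L5 the library with the higher share had the higher ImpE3 value, and in L4, R7 and R8 the lower.

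The rest of the lamina lay between 0.171 and 1.15 RPKM in ImpE3. The order by mean was R8, L3, L5, L4, L2, R7 and L1, with no overlap between R8 and L3 or between L2 and R7. ImpE3 lies within the span of CG2747 in the current annotation but shares no exonic bases with it. R8 was at 8.25 times the mean over lamina types.

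ImpE1 (FBgn0001253, arm 3L), the longest of the 6, had 4.39 and 6.93 RPKM in R8 and 0.0167 and 0.434 in R7. L1 had 0.223 and 0.441 RPKM and L2 had 1.008 and 0.825. L3 had 1.05, 4.84, 0.475 and 3.12 RPKM. In L4 the pair stood at 6.49 and 0.154 RPKM, so that a single L4 library reached the R8 level, and L5 had 1.70 and 0.593. By mean the order was R8, L4, L3, L5, L2, L1 and R7, and among neighbours only L2 and L1 did not overlap.

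The insulin-binding gene ImpL2 (FBgn0001257, arm 3L) did not follow the others. R7 had 1.65 and 1.52 RPKM and R8 had 1.71 and 1.40, so that the 2 types overlapped. L1 had 0.431 and 0.413 RPKM and L2 had 0.476 and 0.477, while L5 had 0.805 and 0.153. L3 had 0.848, 3.74, 0.218 and 1.36 RPKM and L4 had 2.53 and 0.550. By mean the order was R7, R8, L4, L3, L5, L2 and L1, and among neighbours only L2 and L1 did not overlap. In the current annotation 61.9% of its exonic bases overlap CG46460, so reads counted for ImpL2 may belong to either gene.

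The 2 lamina libraries highest in ImpL2 and in ImpE1 were L3 replicate 2 and L4 replicate 1. In the same libraries the 9 epithelial and tracheal markers summed to 35.0 and 19.4 RPKM, against 1.95 to 8.88 in the other lamina libraries. The 8 glial markers summed to 38.5 and 18.1 RPKM there, against 9.51 to 18.97 elsewhere in the lamina. The part of these cells in the ImpL2 and ImpE1 values was not tested. In bulk samples, fewer cells of a type and less RNA per cell cannot be told apart.

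The lactate dehydrogenase gene ImpL3 (FBgn0001258, arm 3L) was under 3 RPKM in every library. L3 had 2.12, 1.34, 0.403 and 2.98 RPKM, and L4 had 1.93 and 0.717. L2 had 0.749 and 1.49 RPKM, L5 0.294 and 1.196, and L1 0.139 and 0.259. In R8 it stood at 0.277 and 0.896 RPKM, and in R7 it was listed at 0 in replicate 1 and at 0.162 in replicate 2. By mean the order was L3, L4, L2, L5, R8, L1 and R7, with no overlap between R8 and L1.

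Set beside each other with no test, the R8 mean was 316 times the R7 mean for ImpE2, 254 times for ImpL1, 25.1 times for ImpE1 and 21.2 times for ImpE3, while for ImpL2 it was 0.983 times. On the log2(RPKM + 1) scale R7 minus R8 was -8.03 for ImpL1, -6.15 for ImpE2, -2.44 for ImpE1, -2.26 for ImpE3, -0.53 for ImpL3 and 0.02 for ImpL2. With a pseudocount of 0.1 in place of 1 the differences were -7.96 for ImpE2, -4.49 for ImpE1, -3.91 for ImpE3 and -1.92 for ImpL3. The ImpL1 ratio of the lowest R8 to the highest R7 library was 143, and that of the highest R8 to the lowest R7 was 781. The same ratios were 211 and 600 for ImpE2, 10.1 and 415 for ImpE1, and 18.6 and 23.9 for ImpE3. In 5 of the 6 genes both R8 libraries lay above both R7 libraries; this is the contrast that chose them, and 33.7% of all genes tested had both R8 libraries above both R7 libraries.

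Taken as a class, and by means of log2 values, photoreceptors were lower than lamina neurons in ImpE2 and higher in ImpE3. This class mean averages the same R7 and R8 values on which the genes were selected, although it does not use the difference between them. ImpE2 differed by -1.22 ± 0.26 (log2 difference ± SE; limma, adjusted p = 0.00133 over all genes tested), although R8 held its highest libraries, since R7 held its lowest. ImpE3 differed by 0.81 ± 0.25 (limma, adjusted p = 0.0132), and the R8 libraries carried this difference, as R7 lay within the lamina range. So 1 of the 6 genes was called higher, against 31.7% of all genes tested, and 1 lower, against 30.2%. The sign for ImpE2 holds on the log2 scale and not for mean RPKM. In RPKM, ImpE2 averaged 0.282 in R7 and 89.3 in R8, against 32.2 over lamina types. A mean of R7 and R8 in RPKM would thus lie above the lamina.

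The other 4 genes did not pass in this comparison, with log2 differences of 0.39 ± 0.43 for ImpE1, -0.56 ± 0.33 for ImpL1, 0.56 ± 0.30 for ImpL2 and -0.54 ± 0.26 for ImpL3 (limma, adjusted p = 0.449, 0.159, 0.115 and 0.0836). The median over the 6 was -0.08, against -0.02 over all genes tested. For ImpL1 too the negative sign belongs to the log2 scale. In RPKM it averaged 5.88 in R7 and 1492 in R8, against 196 over lamina types. The call of ImpE3 ended without R8 replicate 2 (limma, adjusted p = 0.0587) and with a pseudocount of 0.1 (0.109), whereas ImpL1 was called lower without R7 replicate 2 (-1.011, 0.0170) and after quantile normalization (-0.73, 0.0480). ImpL3 was called lower without L3 replicate 3 (0.0237) and with the pseudocount of 0.1 (0.0276), and ImpL2 was called higher without L3 replicate 2 (0.0244) or L4 replicate 1 (0.0483).

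Within the lamina, ImpL1 and ImpE2 were low in L1. ImpL1 was lower there than the mean of the other 4 lamina types by a log2 difference of -3.44 ± 0.44 (limma, adjusted p = 0.000105), and ImpE2 by -2.95 ± 0.35 (limma, adjusted p = 5.34e-05). Both L1 libraries lay below all 10 of the other lamina libraries for both genes. That made 2 of 6 genes lower in L1, against 11.6% of all genes tested, and 0 higher, against 9.53% (0 of the 6 were also higher at an unadjusted p under 0.05). The median over the 6 was -0.84, against -0.10 over all genes tested. ImpL3 was at -0.82 (adjusted p = 0.114) and was called without L3 replicate 3 (limma, adjusted p = 0.0352).

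ImpL1 was higher in L5 than in the other lamina types, by 1.78 ± 0.44 (limma, adjusted p = 0.0144), 1 of 6 genes against 8.58% of all genes tested, and 0 were lower, also at an unadjusted p under 0.05, against 8.89%. L3 replicate 2, at 440 RPKM, lay above both L5 libraries. The call ended without L5 replicate 1 (limma, adjusted p = 0.121) or L5 replicate 2 (0.108), with log2 differences of 1.81 and 1.74. Without L2 replicate 2, ImpE2 was called higher in L5 as well (0.0191).

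No Imp gene was called in L2, L3 or L4 against the other lamina types, where 9.59 to 12.5% of all genes tested were called in a given direction. At an unadjusted p under 0.05, ImpE2 was higher in L2 (0.94 ± 0.35; limma, adjusted p = 0.0752) and in L3 (0.70 ± 0.28; 0.0905), and ImpL1 in L3 (0.93 ± 0.35; 0.0731). L2 replicate 1 held the ImpE2 value of L2 down, and without it the difference was 1.84 (limma, adjusted p = 0.00204). Without L2 replicate 2, ImpE2 was called higher in L3 (0.00365) and in L4 (0.0211), and ImpL1 in L3 (0.0455). ImpL1 was also called in L3 without R7 replicate 1 (0.0367) or R7 replicate 2 (0.0365) and after quantile normalization (0.0325), ImpL3 in L3 without L3 replicate 3 (0.0292), and ImpE1 in L4 without L4 replicate 2 (1.92, 0.0282).

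An F-test across L1 to L5 called ImpE2 (limma, adjusted p = 0.000337) and ImpL1 (0.000437), 2 of 6 genes against 44.6% of all genes tested. For the other 4 the adjusted p ran from 0.186 to 0.751. ImpL3 was called without L3 replicate 3 (0.0346), and ImpE1 without L4 replicate 2 (0.0497).

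**Figure D2:**
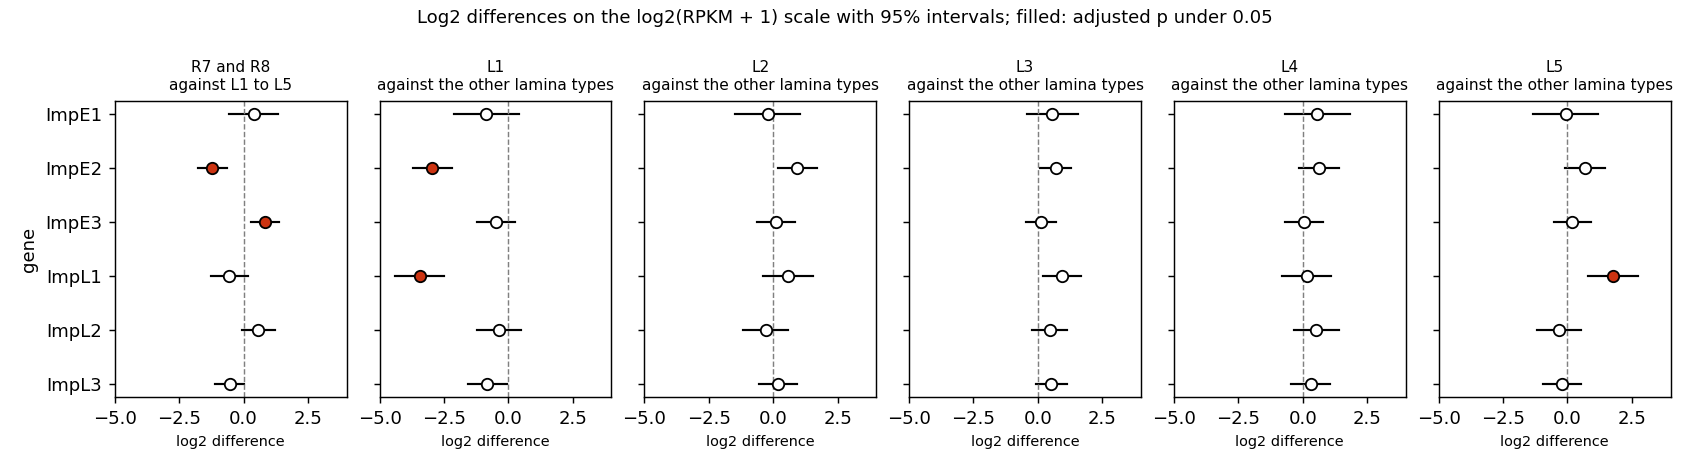
Log2 differences of the 6 Imp genes on the log2(RPKM + 1) scale (horizontal axes) in 6 comparisons, with 95% intervals from limma and filled points where the adjusted p was under 0.05. ImpE2 and ImpL1 are filled for L1 at -2.95 and -3.44, ImpL1 for L5 at 1.78, and ImpE2 and ImpE3 for R7 and R8 against L1 to L5 at -1.22 and 0.81.

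ImpL1 and ImpE2 shared their extremes, both lowest in R7, next lowest in L1 and highest in R8. As a description over the 16 libraries, which share 7 cell types and a common table, Pearson's r of their log2(RPKM + 1) values was 0.96 and Spearman's rho 0.87, and over the 12 lamina libraries they were 0.93 and 0.69. The contrast of R8 with R7 that chose both genes weighs on the former values, and the L1 libraries, low in both, on the latter. No r was taken over L2 to L5 alone. Their proportions were not constant: ImpL1 was 3.05 to 11.6 times ImpE2 in lamina libraries, with L5 highest at 8.99 and 11.6. It was 15.99 and 17.4 times in R8, and 13.4 and 23.6 times in R7. The lamina range lay below all 4 photoreceptor values. ImpE1 and ImpL2 were the other pair close to each other in the lamina (r = 0.91, rho = 0.76, 12 libraries), where L3 replicate 2 and L4 replicate 1 were high in both.

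**Figure D3:**
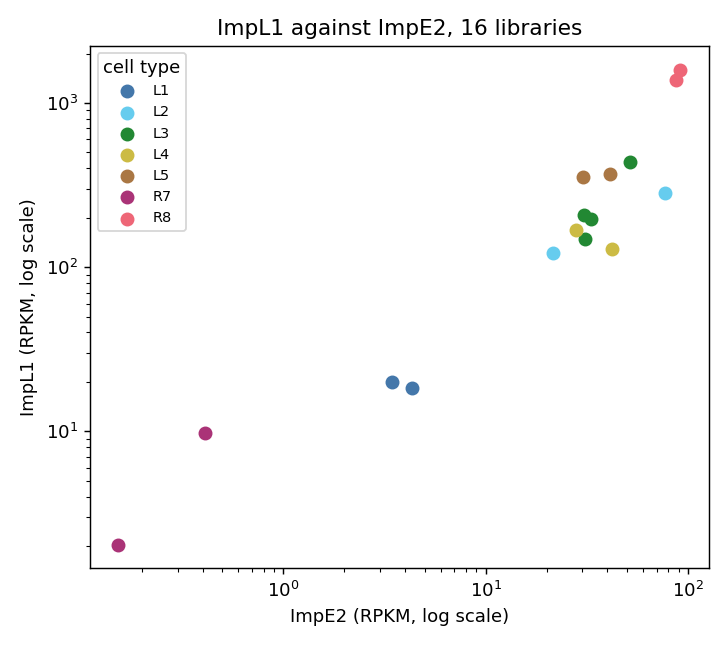
ImpL1 against ImpE2 in RPKM, both axes on log scales, with 1 point for each of the 16 libraries coloured by cell type. R7 is at the lower left, L1 next, the other lamina types in the middle and R8 at the upper right, with L5 above other lamina libraries of like ImpE2 level.

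Genes whose pattern was most like that of ImpL1 or ImpE2 were sought by Pearson's r of log2(RPKM + 1) over the 16 libraries among the 5795 genes tested whose mean reached 10 RPKM in some type. CG34247 (r = 0.974 with ImpL1 and 0.973 with ImpE2), CG5390 (0.966 and 0.970) and CG13023 (0.965 and 0.968), named by number only, led for both. The transferrin gene Tsf1, whose product binds iron, followed (0.961 and 0.965), with CG8306 for ImpE2 (0.965) and ImpE2 itself as the fifth for ImpL1 (0.959). CG13023 averaged 894 RPKM in R8, 5.48 in R7, 13.2 in L1 and 184 to 285 in the other lamina types. CG34247 averaged 368 RPKM in R8, 1.15 in R7 and 5.62 in L1, and Tsf1 51.7, 0.506 and 2.18. All libraries enter each r, so the contrast of R8 with R7 that chose the Imp genes weighs on these values.

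**Figure D4:**
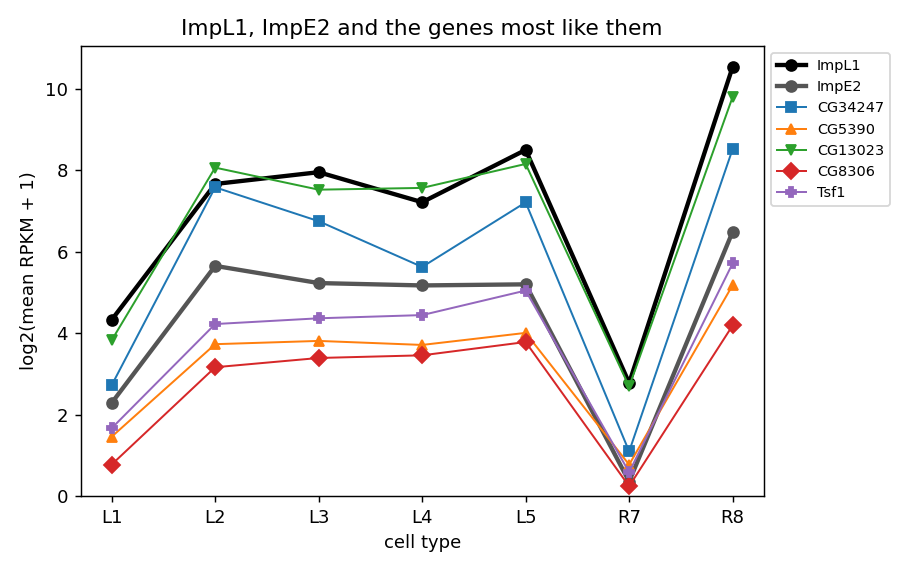
Log2 of the mean RPKM plus 1 (vertical axis) by cell type (horizontal axis) for ImpL1, ImpE2 and the genes with the highest Pearson's r to them; lines join the types of a gene and show no order in time. All 7 genes dip in L1, are lowest in R7 and are highest in R8.

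The genes next to ImpL1 on the chromosome had lower levels, and by mean were likewise highest in R8, lowest in R7 and next lowest in L1. In CG14107, however, the means of R7 (6.24) and L1 (6.43) were close. L3, and not L5, was the highest lamina type by mean in both. CG14107 stood at 1.43 and 11.1 RPKM in R7 and 108 and 235.5 in R8. CG14110, on the other side, stood at 0.0245 and 0.145 RPKM in R7 and 22.1 and 37.1 in R8. Of the neighbours of ImpE2, the ecdysone-inducible kinase gene Eip63E averaged 4.92 RPKM in R7 and 23.3 in R8, while CG42324 averaged 2.08 and 4.87 and was highest in lamina libraries, at 12.2 to 120 RPKM. The neighbours of ImpL3, CG10163 and CG43168, stayed under 1 RPKM in every library, as did Jon66Ci beside ImpE1 and Pbp95 beside ImpE3. Idh, on the other side of ImpE1, averaged 417 RPKM in R7 and 282 in R8, and CG10903, beside ImpE3, 18.5 and 21.2. Beside ImpL2, CG43367 averaged 4.96 and 4.04 RPKM and CG14997 10.2 and 6.35. Neighbour order was read from a later annotation than that of the table.

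Of the 17 genes listed for the hormone receptor and its response factors, 15 were tested, since Hr38 and ftz-f1 did not pass the filter. The orphan nuclear receptor gene Eip78C was the 1 called between R7 and R8, lower in R7 (7.14% of all genes tested were called lower and 3.2% higher). Without L4 replicate 1 or L4 replicate 2, 2 were lower in place of 1. A fit on the R7 and R8 libraries alone, where 13 factors were tested, called 7 lower (Blimp-1, EcR, Eip74EF, Eip78C, Eip93F, Hr46 and tai) and DopEcR higher, against 18.7 and 18% of all genes tested there. Mean Eip78C was 17.6 ± 0.478 RPKM in R7 against 39.7 ± 0.146 in R8 (log2 difference -1.13 ± 0.17; limma, adjusted p = 0.000777). L1 held 1.12 ± 0.0828 RPKM of it against type means of 23.5 to 66.6 elsewhere in the lamina, and L1 differed from these by -4.33 ± 0.14 (limma, adjusted p = 3.07e-10). It was 1 of 15 factors called lower in L1 (11.6% of all genes tested), and 1 factor was called higher there after quantile normalization or without L4 replicate 1.

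EcR, the hormone-binding subunit, averaged 10.7 ± 0.946 RPKM in R7 and 18.2 ± 0.775 in R8 (log2 difference -0.72 ± 0.25; limma, adjusted p = 0.110). In the lamina EcR averaged 15.3 RPKM in L1, 6.91 in L2 and 11.5 to 15.6 in L3 to L5. It was called lower in L2 than in the other lamina types (-0.87 ± 0.20; limma, adjusted p = 0.00812), where 9.59% of all genes tested were called lower. Its partner usp averaged 10.6 ± 0.790 RPKM in R7 and 13.4 ± 1.17 in R8 (-0.32 ± 0.28; limma, adjusted p = 0.669). The zinc finger gene br was low in all types, at 0.284 to 1.51 RPKM on average. Eip93F, a factor of late metamorphosis, averaged 73.4 ± 6.34 RPKM in R7 and 118 ± 0.646 in R8 (-0.68 ± 0.44, 0.478).

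In photoreceptors as a class 7 of the 15 factors were lower than in the lamina and 2 higher, against 30.2 and 31.7% of all genes tested. The transcriptional repressor gene Blimp-1 averaged 0.400 to 1.36 RPKM in both photoreceptors and 4.24 to 16.8 in lamina types, a log2 difference of -2.41 ± 0.30 (limma, adjusted p = 1.31e-05). The nuclear receptor gene Eip75B averaged 59.6 and 56.4 RPKM in R7 and R8 and 196 to 308 in lamina types (-1.91 ± 0.16; limma, adjusted p = 4.37e-07). Hr46 (-1.05), the ETS factor gene Eip74EF (-0.91), DopEcR (-0.73), usp (-0.47) and Hr4 (-0.70) were the other lower ones, and Hr39 (0.88) and Eip93F (0.79) the higher ones. The usp call ended without any single R7 or R8 library (limma, adjusted p from 0.0503 to 0.0962). Without R7 replicate 1 or R8 replicate 2, and after quantile normalization, 1 factor was higher in place of 2.

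Of 10 other ecdysone-inducible genes, 7 were tested, and 3 were lower in R7 than in R8 while 1 was higher, against 7.14 and 3.2% of all genes tested. Eip63E differed by -2.04 ± 0.28 (limma, adjusted p = 0.000329). Named after their values were seen, the transporter gene E23 (-1.50) and the serine protease gene Sb, which acts in disc morphogenesis (-0.93), were the other lower ones, and the calcium-binding protein gene Eip63F-1 (1.92) was higher in R7. The Sb call ended without R7 replicate 2 (limma, adjusted p = 0.193), R8 replicate 1 (0.0821) or R8 replicate 2 (0.113). The Eip63F-1 mean was 8.60 RPKM in R7 and 1.53 in R8. In photoreceptors as a class 4 of the 7 were higher than in the lamina (31.7% of all genes tested) and the other 3 were not called, with Eip55E, an enzyme of cysteine metabolism, at 45.2 to 47.6 RPKM against 13.9 to 28.8 (1.104 ± 0.15; limma, adjusted p = 2.44e-05). Of 9 genes of hormone synthesis and uptake only 2 were tested. Both the importer gene Oatp74D (-0.96) and sro were lower in photoreceptors, where 30.2% of all genes tested were called lower.

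**Figure D5:**
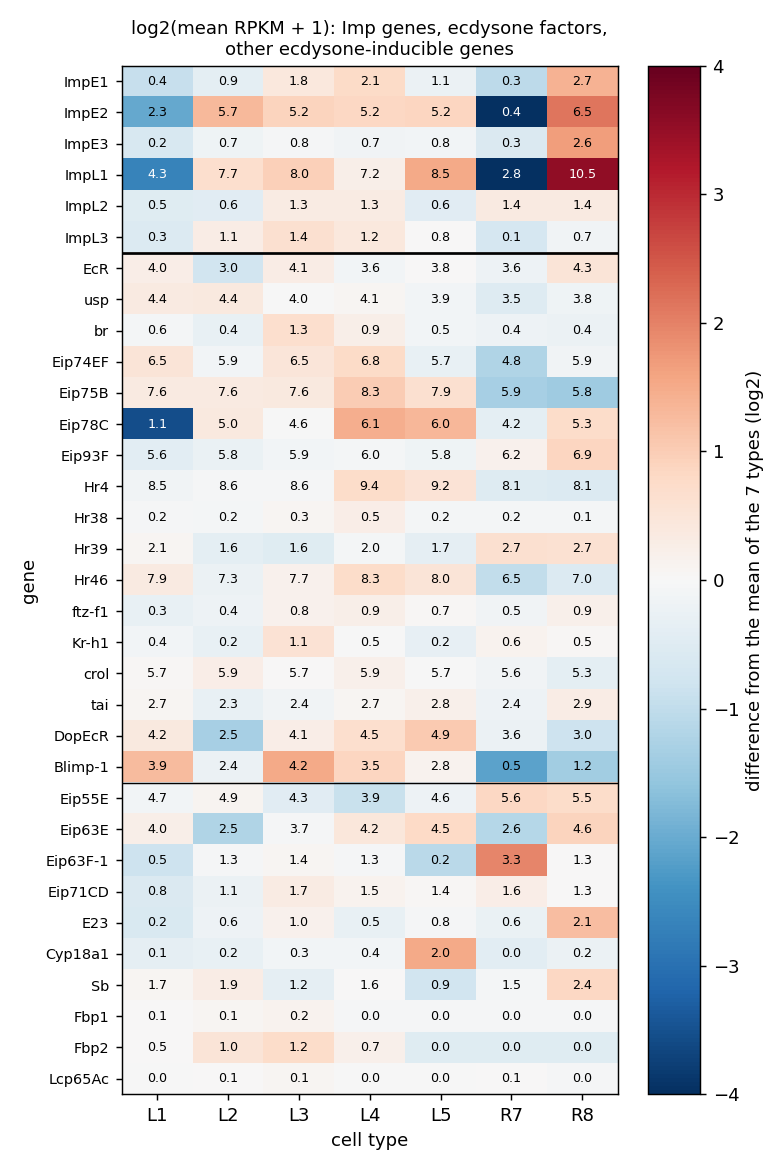
Mean levels of the 6 Imp genes (top), the ecdysone receptor and response factors (middle) and other ecdysone-inducible genes (bottom), as log2 of the mean RPKM plus 1 printed in each cell, by cell type; colour shows the difference from the mean over the 7 types in log2 units, with the darkest colours at 4 or beyond. Strong colours include those of ImpE2 and ImpL1 in R7, R8 and L1, of Eip78C in L1, of Eip63F-1 in R7 and of Blimp-1 in R7.

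Since ImpE2 protein is apical and extracellular in discs, genes of the apical matrix were set beside it. Of 11 listed, 9 were tested, and 7 were lower in R7 than in R8 while 2 were not called, against 7.14% of all genes tested called lower, with a median log2 difference of -2.37 against 0.02 over all genes tested. The zona pellucida domain gene tyn averaged 1.39 ± 0.137 RPKM in R7 and 25.9 ± 2.69 in R8 (-3.49 ± 0.54; limma, adjusted p = 0.000836), and mey 0.317 ± 0.0545 and 11.8 ± 1.16 (-3.28 ± 0.47; limma, adjusted p = 0.000483). The others were pio, nyo, neo and dy, also of that family, and trn, a leucine-rich repeat surface protein and not a matrix gene, whose call ended without any single R7 or R8 library (limma, adjusted p from 0.0702 to 0.248). The nyo and dy calls also ended without any single R7 or R8 library (0.0879 to 0.264), and that of dy without any single L1 or L2 library or L3 replicate 1 (0.0533 to 0.0595). In L1, tyn (-1.95), neo (-1.24) and mey (-1.16) were lower than in the other lamina types, where 11.6% of all genes tested were called lower. The neo and mey calls ended without either L1 library and that of tyn without L1 replicate 2 (limma, adjusted p from 0.0847 to 0.274), and that of mey also without L2 replicate 2 or any single L5, R7 or R8 library (0.0537 to 0.0722).

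Epithelial and tracheal markers, as a sum, also stood higher in R8 than in R7. Their sum over 9 markers was 17.3 and 23.8 RPKM in R7 and 44.1 and 62.4 in R8, mostly from crb, which photoreceptors also express, and from the tracheal and cuticle matrix gene Gasp. Gasp had 0.386 and 3.61 RPKM in R7 and 17.1 and 32.2 in R8. In mean RPKM, grh stood at 0.0442 in R7 and 0.762 in R8, trh at 0.0814 and 0.541, sha at 0.00325 and 0.358, verm at 1.64 and 4.33 and serp at 0.728 and 1.65, all higher in R8. The 4 markers tested (crb, Gasp, serp and verm) did not pass between R7 and R8, with Gasp at -3.28 (limma, adjusted p = 0.114). The marker btl went the other way, at 0.166 in R7 and 0.0901 in R8, and shg was nearly level, at 0.757 and 0.784. Both were under 1 RPKM in every library, as were sha and trh, and btl and sha were each at 0 in 2.

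Some markers of other cells also stood higher in R8 than in R7, and others lower. Blood cell markers summed to 0.826 and 0.911 RPKM in R7, 4.25 and 8.67 in R8 and 1.95 to 22.7 in the lamina, with Hml under 1 RPKM in all 16 libraries. Hml (0.0715 against 0.0398), srp (0.0489 against 0.0214) and nimC1 (0.0516 against 0.00422) averaged higher in R7 than in R8. The collagen gene Cg25C made up most of the blood cell sum in R8, at 3.21 and 6.76 RPKM. In R7 it had 0.0602 and 0.106 RPKM against 0.607 and 0.616 for vkg, and it was called lower in R7 (-2.40; limma, adjusted p = 0.000954). Glial markers summed to 24.8 and 28.5 RPKM in R7 and 34.5 and 35.9 in R8, and repo, under 1 RPKM in 15 of 16 libraries, averaged 0.277 in R7 and 1.004 in R8. Most of the glial sum was nrv2, at 18.5 and 20.6 RPKM on average. The glial genes moody (0.791 against 3.48 RPKM; -1.33) and wrapper (0.0343 against 2.08; -1.56) were called lower in R7 (limma, adjusted p = 0.00267 and 0.0160), wrapper no longer without R7 replicate 1, R7 replicate 2 or R8 replicate 2 (0.101 to 0.169). Fat body markers were at 0.791 to 1.08 RPKM in R7 and R8 and 1.14 to 11.9 in the lamina, and cone and pigment cell markers at 58.0 and 68.2 in R7, 102 and 105 in R8 and 42.9 to 1059 in the lamina. The cone and pigment cell sums were mostly from w in every type. The marker bw averaged 5.29 RPKM in R7 and 3.845 in R8. The crystallin gene Crys, under the symbol Cry here, averaged 0.152 RPKM in R7 and 2.74 in R8 and was not called (-1.70; limma, adjusted p = 0.147). B-H1 (0.305 and 1.45 RPKM) was called lower in R7 (-0.91; limma, adjusted p = 0.0115). The B-H1 call ended without either R7 library, with log2 differences of -0.95 and -0.86. The part of these cells in the ImpL1, ImpE2, ImpE1 and ImpE3 levels of R8 was not tested.

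Genes of insulin signalling and of glycolysis were set beside ImpL2 and ImpL3. Of 12 insulin signalling genes tested of 17 listed, 2 were higher in photoreceptors than in the lamina and 5 lower, against 31.7 and 30.2% of all genes tested. The peptide gene Ilp2 averaged 63.9 ± 12.9 RPKM in L3 and 90.1 ± 11.4 in L5, at most 0.724 in L1, L2 and L4, 0.0591 ± 0.0284 in R7 and 2.87 ± 0.676 in R8 (R7 against R8, -1.86 ± 0.26; limma, adjusted p = 0.000329). Ilp4 averaged 10.8 ± 5.56 RPKM in L3 and was listed at 0 in both R7 libraries. The Imp gene whose product binds such peptides, ImpL2, stood at 0.422 to 1.58 RPKM on average in every type.

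Of 19 glycolysis and lactate genes tested, 14 were lower in photoreceptors and 3 higher, against 30.2 and 31.7% of all genes tested, while ImpL3 itself was not called. The monocarboxylate transporter gene Sln, a carrier of lactate-like acids, averaged 2.28 to 3.74 RPKM in R7 and R8 and 18.4 to 48.8 in lamina types (-2.77 ± 0.11; limma, adjusted p = 4.36e-10). Tpi (-1.73) and Pgk (-1.70) were lower as well, while the aldolase gene Ald was higher, at 80.3 to 83.3 RPKM against 6.72 to 27.1 (2.71 ± 0.12; limma, adjusted p = 1.04e-09). Between R7 and R8, 2 of the 19, PyK and Eno, were lower in R7 (limma, adjusted p = 0.0446 and 0.0389) and 0 higher. Of all genes tested, 7.14% were called lower and 3.2% higher. The PyK call ended without any single L1, L2, L5 or R7 library, or L3 replicate 1, L3 replicate 4 or R8 replicate 2 (0.0520 to 0.422), and the Eno call ended without any single L1, L2, L5, R7 or R8 library (0.0504 to 0.220).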

How the data were processed

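The authors deposited 1 table of RPKM values, 1 column per library; 0 sample columns were left unused. TopHat and build BDGP5 are named per the submitters' processing notes; which tool counted reads, on which annotation and with what strandedness, is not given in the sources used here. That the unit is RPKM was taken from the values. Of values of up to 20 reads, 70.6 to 74.3% came out within 0.05 of a whole read, so count tests, planned only for counts, were not run.

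Genes reaching 1 RPKM in 2 or more libraries (9346, all 6 Imp genes among them) were fitted as log2(RPKM + 1) in R 4.3.3 by limma 3.58.1, a mean per cell type over all 16 libraries and a variance trend being estimated. Benjamini-Hochberg adjustment ran over all genes, with calls under 0.05. The script was tested on simulated data. Members, gene lists and markers were chosen with earlier results of these data known. Beside the Imp genes, names were given to up to 4 called genes per list and comparison averaging 10 RPKM or more in some type, the 5 genes most alike, and any ecdysone factor. Alternatives were quantile normalization, no filter, a pseudocount of 0.1, a replicate block, a 2-fold threshold, compared libraries alone, and leaving out each library. Leaving out L3 replicates 3 and 4 was added after seeing the data. Current annotation gave names and overlaps, with no coordinates since builds differ. Python 3.11.15, pandas 2.3.3 and matplotlib 3.10.9 drew the figures.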

Additional observations from a re-analysis of the deposited data

Results flagged for a closer look

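Of the 6 Imp genes examined in L3, the type with 4 libraries, 1 had a library far from the rest. ImpE2 stood at 51.9 RPKM in L3 replicate 2, while the other L3 libraries lay at 30.5 to 33.3, so that the gap was nearly the whole range of the group. Such a gap arises by chance in about 1 in 20 groups. The same library had the highest ImpL1 level of the lamina, at 440 RPKM, and its highest epithelial and glial marker sums, at 35.0 and 38.5 RPKM. The part of those cells in the ImpE2 value was not tested.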

How the results depend on the processing

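The calls of ImpL1 and ImpE2 in L1 held under every alternative run, and the F-test calls of both too. Replicate numbers were not taken to pair the libraries, since deviations of same-numbered libraries correlated over 0.1 in 7 of 15 pairs of types without L3 and in 4 of 12 values with it (-0.25 to 0.32). As a hint from the data, 13 of 14 libraries lay nearest to their own number, though libraries of a type with 2 mirror each other. With replicate number as a block, fitted without L3 replicates 3 and 4 since the other types have 2, ImpL3 was called lower in photoreceptors (-0.56, adjusted p = 0.0307) and ImpE3 and ImpL3 lower in L1 (0.0444 and 0.0372), ImpE3 and ImpL1 were called higher in L3 (0.0257 and 0.0336) and ImpE3 passed the F-test (0.0488). Leaving out those L3 libraries with no block gave the same calls, ImpL1 in L3 excepted.

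Uncalled log2 differences that changed sign were ImpE3 in L2 (-0.0457 with the block or without those L3 libraries), in L3 (-0.0820 quantile, -0.10 with a pseudocount of 0.1) and in L4 (-0.00111 quantile, -0.10 with the block or without those L3 libraries), and ImpE1 in L5 (0.16 with a pseudocount of 0.1). Leaving out 1 library gave for L2 -0.54 to 0.13 (ImpE1), -0.0350 to 1.18 (ImpL1) and -0.0729 to 0.44 (ImpL3), for L3 -0.10 to 0.33 (ImpE3), for L4 -0.78 to 1.92 (ImpE1), -0.38 to 0.50 (ImpE3), -0.0291 to 0.34 (ImpL1), -0.0581 to 1.13 (ImpL2) and -0.0728 to 0.70 (ImpL3), and for L5 -0.44 to 0.32 (ImpE1) and -0.58 to 0.18 (ImpL3).

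Counts over all genes, higher and lower, fell beyond 2-fold from 2963 and 2821 to 709 and 617 for photoreceptors, and to 110 and 184 for L1, 98 and 167 for L2, 232 and 78 for L3, 172 and 83 for L4, 167 and 158 for L5 and 46 and 190 for R7 against R8; ImpE2, ImpE3 (photoreceptors) and ImpL1 (L5) did not pass it. With the block they were 1938 lower in L1 (main 1080), 1866 higher in L2 (1120), 2065 higher in L3 (1166), 2110 lower in L4 (1147), 1634 lower in L5 (831) and 588 higher in R7 (299). Without those L3 libraries they were 1741 lower in L1, 1837 higher in L3, 1947 lower in L4, 1510 lower in L5 and 520 higher in R7. Compared libraries alone gave 718 higher in L2, and 1396 and 1455 for R7 against R8; quantile normalization gave 1493 lower in L3 (936). Leaving out 1 library, counts ran from 378 to 1038 higher and 427 to 1349 lower in L1, 269 to 1487 and 356 to 1069 in L2, 727 to 1400 lower in L4, 328 to 939 and 415 to 1063 in L5, and 108 to 373 and 309 to 770 for R7 against R8. The causes were not tested. ImpE1, ImpE3, ImpL2 and ImpL3 were under 7 RPKM in every library, and most types had 2 libraries. With the block 3 ecdysone factors were lower in R7 than in R8, and beyond 2-fold 0.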
